A study of Mus musculus with 108 samples.

Results

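Acinar cells of the mouse pancreas were set apart by their level of inducible HSP70, taken as the sum of the transcripts of Hspa1a and Hspa1b in each cell. All cells of the series were ranked by this sum, and members were chosen by it: the 27 highest (Hspa1-high cells) were compared with the 27 lowest (Hspa1-low cells), so that 54 cells were members and the remaining 54 cells lay between them (middle cells). All cells came from untreated male C57BL/6 mice aged 12 weeks. Pancreas was digested with collagenase and Accutase, islets were strained away, and the RNA of single cells was turned into full-length cDNA libraries with a modified SMART-seq2, which carries no molecular identifiers. The same strain, age and protocol are given for Hspa1-high, middle and Hspa1-low cells, and the labels divide them by no treatment. Whether the cells were handled together is not known, because no animal, day or plate is named. Levels are in TPM, which is corrected for transcript length and gives each transcript's share of its own cell's total.

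Hspa1a and Hspa1b encode cytosolic HSP70, a chaperone that binds exposed stretches of unfolded protein and releases them in cycles driven by ATP. Small heat shock proteins hold unfolded proteins, J-domain proteins deliver them to HSP70, nucleotide exchange factors reset it, and HSP90 takes over later folding steps. Under heat and other proteotoxic stress the transcription factor HSF1 binds heat shock elements, which are repeats of the letters GAA in alternating orientation, and raises transcription of these genes. Acinar cells make large amounts of secreted digestive enzymes, which fold in the endoplasmic reticulum (ER) with a separate set of chaperones.

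The 150 bases before the gene start are shown for Hspa1a, Hspa1b and Hspb1, the genes used for ranking and the chaperone with the largest difference between the sets of cells. For Hspe1, whose correlation with Hspa1 was the second highest among chaperones, the 30 bases around its motifs are shown. The sequences are from RefSeq on GRCm38.p6, read 5′ to 3′ on the strand of the gene. Capitals mark the pairs GAANNTTC and TTCNNGAA, searched on both strands (each reads the same on either) in windows from 250 bases before to 50 after the start.
Hspa1a (chr17:34972157-34972306, minus strand): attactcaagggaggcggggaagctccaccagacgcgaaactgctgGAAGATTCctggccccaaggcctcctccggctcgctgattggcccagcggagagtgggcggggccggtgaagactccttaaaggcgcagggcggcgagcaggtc
Hspa1b (chr17:34959239-34959388, minus strand): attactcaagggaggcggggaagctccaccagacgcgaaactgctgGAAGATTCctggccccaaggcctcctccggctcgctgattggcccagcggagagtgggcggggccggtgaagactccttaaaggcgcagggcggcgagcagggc
Hspb1 (chr5:135887769-135887918, plus strand): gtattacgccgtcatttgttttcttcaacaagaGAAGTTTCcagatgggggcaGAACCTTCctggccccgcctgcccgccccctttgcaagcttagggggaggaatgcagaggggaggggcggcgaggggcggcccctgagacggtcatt
Hspe1 (chr1:55088053-55088082, plus strand): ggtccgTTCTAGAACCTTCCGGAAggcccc
At least 1 such pair was present in 15.1% of 32851 RefSeq promoter windows. The Hspa1a and Hspa1b windows of 300 bases each held 1 pair, which began at position -104 from the start, and differed from each other at 4 positions. Hspb1 held 2 pairs, at -117 and -97. Hspe1 held 3 overlapping pairs, at -89, -84 and -79, which together form runs of 3 alternating units (GAANNTTC followed by NNGAA, or TTCNNGAA followed by NNTTC, so that such a run includes the pairs), a pattern present in 0.603% of windows. Among other genes described here, both Hsph1 windows, which overlap, held the same 3 pairs and run of 3 units. Of the Hspd1 windows 1 held 3 pairs, which are the Hspe1 pairs read on the other strand. Bag3, Hspb8, Jun and 1 of the Dnaja1 windows held 1 pair each. No pair of these letters was found in the windows of Dnajb1, Fos or Dusp1. For Hsp90aa1, Hsp90ab1, Hspa8, Cryab and Egr1 no window was available, so these genes were not searched. A match describes letters only, and binding was not measured.

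Hspa1a made up 94.8% of the summed TPM of both genes over all cells. The genes lie side by side on chromosome 17, Hspa1a at chr17:34969190-34972156 and Hspa1b at chr17:34956436-34959238, both on the minus strand (GRCm38, GENCODE M21). Their coding sequences were identical at 1915 aligned bases, or 99.6%, so reads cannot be divided between them with certainty, and the sum is the safer value. The sum ran from 8.10 to 55.7 TPM in Hspa1-high cells (median 13.6 TPM), from 0 to 7.77 TPM in middle cells (median 0.735 TPM) and stood at 0 in every Hspa1-low cell. These values chose the cells and are a description. The last cell inside the high set (cell 84) had 8.10 TPM and the first outside (cell 43) 7.77 TPM, so the division cut a continuous range and not a gap.

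At the lower end, 35 cells were tied at 0. Ties were ordered by cell number, which placed 8 cells at 0 among the middle cells, numbers 1, 3, 6, 7, 11, 12, 16 and 18. Over all cells, the sum was above 0 in 73 cells and at or above 1 TPM in 52. Hspa1b reached 1 TPM in 11 of 27 Hspa1-high cells and never exceeded 2.16 TPM. Hspa1l, the third gene of the cluster, was at 0 in every Hspa1-high and Hspa1-low cell. TPM keep no read count, so a value of 0 in a cell is below detection at an unknown depth.

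**Figure D1:**
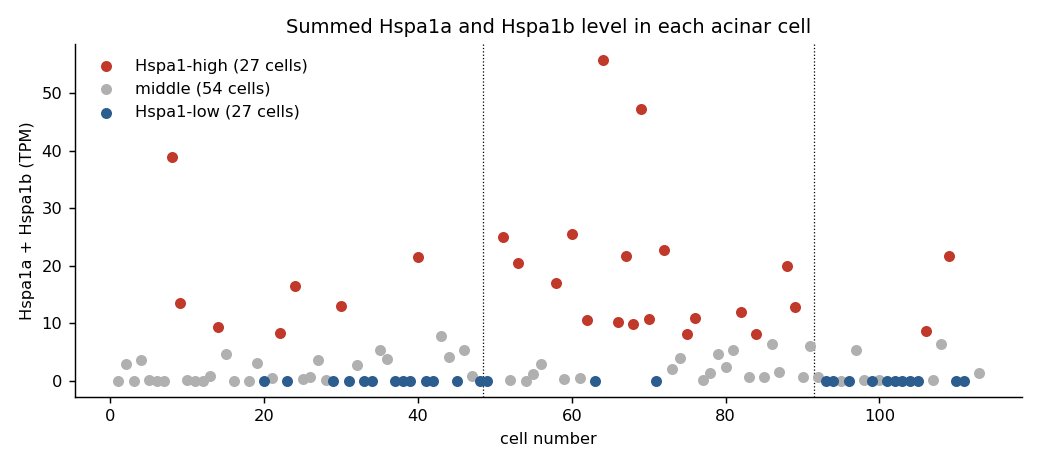
Summed Hspa1a and Hspa1b level (TPM, vertical axis) of each cell by cell number (horizontal axis), with 27 Hspa1-high cells in red, 54 middle cells in grey and 27 Hspa1-low cells in blue. Dotted lines divide cells 1 to 48, 49 to 91 and above 91. The middle stretch holds 18 of the 27 Hspa1-high cells.

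Hspa1-high cells were spread unevenly over the cell numbers. Cells 49 to 91 held 18 of 27 Hspa1-high cells and 3 of 27 Hspa1-low cells, cells 1 to 48 held 7 and 13, and cells numbered above 91 held 2 and 11. The sum was 0 in 3 of the 40 cells numbered 49 to 91, in 21 of 47 numbered 1 to 48 and in 11 of 21 numbered above 91, with medians of 5.73, 0.170 and 0 TPM. The labels name no animal, day or plate, so cell number stands in for any of these and cannot be told apart from them. The main differences are therefore also given within cells 1 to 48 and within cells 49 to 91. Values within cells 49 to 91 rest on 3 Hspa1-low cells and are uncertain too. Within cells numbered above 91, with 2 Hspa1-high cells, values are of little weight.

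All members carried the acinar program. Each of 12 acinar markers was at or above 1 TPM in every Hspa1-high and every Hspa1-low cell, and lymphocyte markers reached 1 TPM in no member. Cell 40, an Hspa1-high cell with 6946 genes detected, held 9 of 11 endothelial markers (summed 85 TPM) and 3 of 11 stellate markers. The summed endothelial level was otherwise at most 4.09 TPM in Hspa1-high cells and at most 2.80 TPM in Hspa1-low cells, and Cldn5 was at 0 in both sets. Cell 96, an Hspa1-low cell, held 4 stellate markers. The summed level of macrophage markers was at most 2.70 TPM in Hspa1-high and 6.02 TPM in Hspa1-low cells. The number of genes at or above 1 TPM had a median of 4425 in Hspa1-high cells (3122 to 6946) and 4002 in Hspa1-low cells (2624 to 4848), and digestive enzymes took a median of 87.6% and 88.2% of the total. Over all cells, the Spearman correlation of the Hspa1 sum was 0.28 with the number of genes detected and -0.13 with the enzyme share. Within cells 1 to 48 these values were 0.35 and -0.44, and within cells 49 to 91 they were 0.29 and -0.02. Depth in reads is unknown, and the part of gene detection and of the enzyme share in the differences was not tested.

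A further 4 cells stood apart. Cells 31, 41 and 48 and 1 cell numbered above 91, all Hspa1-low, had Malat1, a nuclear non-coding RNA present in nearly every cell type, at or below 4.08 TPM, whereas every other cell had at least 154 TPM. Fos was at 0 in cells 31, 41 and 48. The 8 genes whose difference passed 1 only with these 4 cells are given with and without them.

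Apart from the genes used for ranking, 20 of 7225 measured genes (0.277%) were higher in Hspa1-high cells by at least 1 on the log2(TPM + 1) scale, and 1 (0.0138%) was lower by at least 1. The difference is the mean of Hspa1-high cells minus that of Hspa1-low cells, and a gene was measured where at least 11 cells had 1 TPM. Each cell is 1 sample and no animal is named, so there is no replicate and no test, and higher or lower describes these cells. The genes past 1 were the chaperones Hspb1 and Hsp90aa1, the immediate-early genes Fos, Jun, Dusp1, Egr1, Gadd45g and Ier2, the Reg genes Reg2, Reg3b, Reg3a and Reg3g, the non-coding RNA Malat1, and Txnip, Depp1, Rps6-ps4, Gm10443, Gm37376, Gm26917 and Gm42418. Gm12338 was the gene that was lower. Most genes were slightly higher in Hspa1-high cells, with 80% above 0 and a median of 0.15 over all genes. With median-of-ratios scaling 14 genes were higher and 3 lower by at least 1, and with scaling that left out the digestive enzymes 17 and 3.

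Hspb1, the small heat shock protein HSP27 (chr5:135887919-135889563), followed Hspa1 most closely. It stood at 6.43, 26.3 and 247 TPM (lowest, median, highest) in Hspa1-high cells, at a median of 13.5 TPM in middle cells, and at 0, 7.53 and 49.3 TPM in Hspa1-low cells. The ranges overlapped, with 8 Hspa1-high cells above every Hspa1-low cell. Of Hspa1-high cells 23 of 27 exceeded the median of all cells, 14.2 TPM, as did 6 of 27 Hspa1-low cells. The difference was 1.75 (SD over cells 1.16 in Hspa1-high and 1.04 in Hspa1-low cells), 1.84 within cells 1 to 48, 1.49 within cells 49 to 91, and 1.86 without the 4 cells low in Malat1.

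Over all cells the Spearman correlation of Hspb1 with the Hspa1 sum was 0.56, the first of 7225 genes. It was 0.55 within cells 1 to 48, 0.58 within cells 49 to 91 and 0.60 within cells above 91, where Hspb1 ranked 11th, 2nd and 17th. These points share library preparation and unknown depth. Among the other small heat shock proteins, Hspb8, a partner of Bag3 in clearing misfolded protein, differed by 0.66 (medians 2.53 TPM in Hspa1-high and 1.52 TPM in Hspa1-low cells), with 0.33 within cells 1 to 48 and 0.59 within cells 49 to 91. Cryab, the chaperone αB-crystallin, differed by 0.42, with 0.60 and 0.05 within the same sets, Hspb6 by -0.14 and Hspb11 by -0.08. The differences of the 5 measured members therefore ran in both directions.

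Hsp90aa1, the stress-inducible cytosolic HSP90 (chr12:110690605-110702728), stood at 17.1, 52.8 and 313 TPM in Hspa1-high cells, at a median of 22.045 TPM in middle cells, and at 4.57, 23.01 and 65.9 TPM in Hspa1-low cells. Its highest value was in cell 40, and 11 Hspa1-high cells exceeded every Hspa1-low cell, while the lower parts of the ranges coincided. The difference was 1.18 (SD 1.33 in Hspa1-high and 0.93 in Hspa1-low cells), 0.94 within cells 1 to 48, 1.16 within cells 49 to 91, and 1.14 without cells 31 and 40. Cell 40 was among the 7 Hspa1-high cells within cells 1 to 48, and cell 31, with 65.9 TPM, among the 13 Hspa1-low cells there. The difference within cells 1 to 48 is not given without them. The level in middle cells was as low as in Hspa1-low cells, and high Hsp90aa1 lay in a portion of the Hspa1-high cells.

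Hsp90ab1, the constitutive HSP90, had a median of 36.8 TPM in Hspa1-high cells and 21.1 TPM in Hspa1-low cells, a difference of 0.67 (0.41 within cells 1 to 48 and 0.76 within cells 49 to 91). Of the 16 measured genes for HSP90 and its co-chaperones, Hsp90aa1 exceeded a difference of 1 (0.277% of all genes did). Hsp90aa1 and Hsp90ab1 exceeded 0.5 (4.46%). Fkbp4, an immunophilin of the HSP90 complex, differed by 0.38, Ahsa1, which stimulates the HSP90 ATPase, by 0.43, and Stip1, the HSP70 to HSP90 adaptor, by 0.16. Ptges3, the p23 co-chaperone, differed by -0.11. The median over the 16 was 0.27, against 0.15 for all genes.

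**Figure D2:**
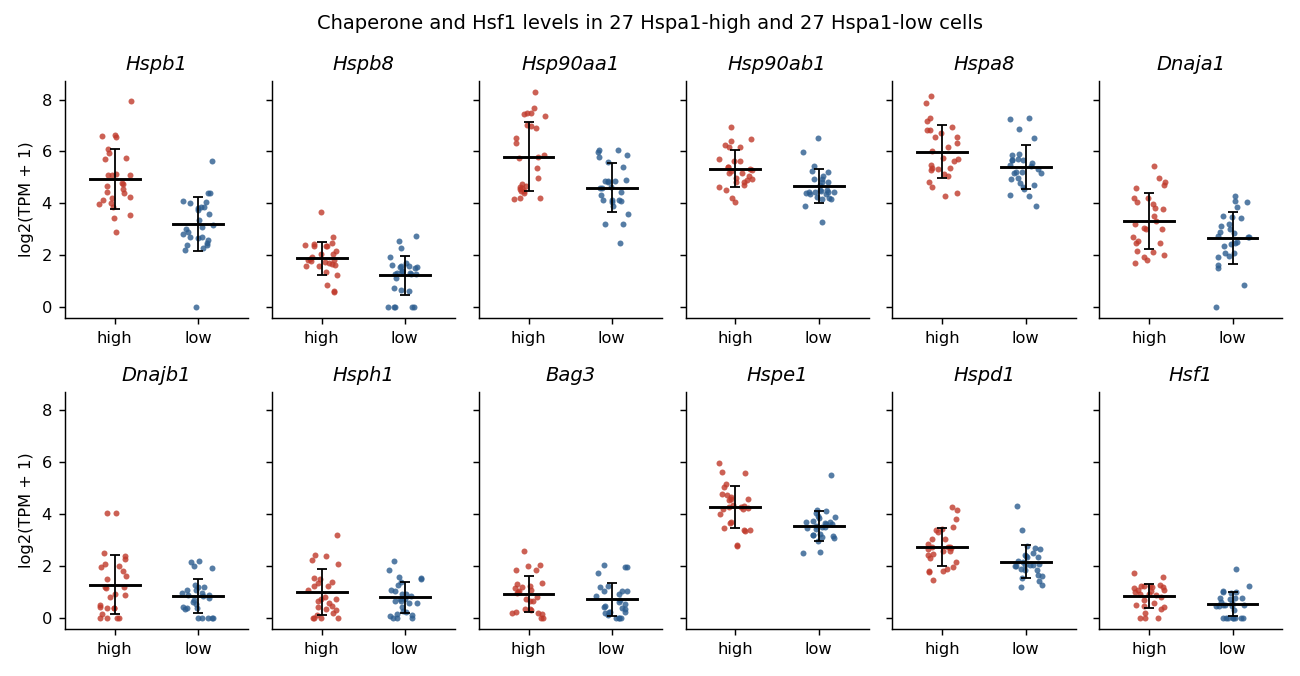
Levels of 11 chaperone or co-chaperone genes and Hsf1, on the log2(TPM + 1) scale, in 27 Hspa1-high cells (left, red) and 27 Hspa1-low cells (right, blue). Each point is a cell, the thick line is the mean and the bar is 1 SD over cells. Hspb1 and Hsp90aa1 show the largest differences, 1.75 and 1.18.

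The other HSP70 and co-chaperone genes differed less. Hspa8, the constitutive HSC70, had medians of 52.6 TPM in Hspa1-high cells and 38.9 TPM in Hspa1-low cells. Its difference was 0.57 over all members and 0.69 within cells 49 to 91, but 0.00 within cells 1 to 48. Of 13 measured J-domain genes 11 were above 0, as were 80% of all genes, and none reached 1. Dnaja1, a cytosolic J-domain partner, differed by 0.66 (medians 8.32 TPM in Hspa1-high and 5.62 TPM in Hspa1-low cells), and Dnajc7, which also binds HSP90, by 0.54.

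Several genes known as strong HSF1 targets were low in both sets. Dnajb1, the stress-inducible HSP40, reached 1 TPM in 14 of 27 Hspa1-high cells (51.9%, exact Clopper-Pearson 95% interval 31.9% to 71.3%) and in 9 of 27 Hspa1-low cells (33.3%, 16.5% to 53.96%), and differed by 0.44 (0.35 within cells 1 to 48 and 0.77 within cells 49 to 91). Such intervals cover counting error only. Hsph1, the HSP110 exchange factor, had medians of 0.680 TPM in Hspa1-high and 0.670 TPM in Hspa1-low cells and differed by 0.21, and Bag3, another exchange factor, also by 0.21 (0.980 and 0.470 TPM). Within cells 1 to 48 the differences of Hsph1 and Bag3 were -0.15 and -0.05. Hsf1 itself differed by 0.30 over all members, 0.12 within cells 1 to 48 and 0.82 within cells 49 to 91, with 13 of 27 Hspa1-high cells (48.1%, 28.7% to 68.1%) and 5 of 27 Hspa1-low cells (18.5%, 6.30% to 38.1%) at or above 1 TPM, and Hsf2 was at or above 1 TPM in too few cells to be measured.

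Mitochondrial chaperones had small positive differences. All 11 measured members were above 0 (80% of all genes were), 5 exceeded 0.5 (4.46%), and none reached 1 (0.277%). Their median was 0.43, with 0.39 within cells 1 to 48 and 0.37 within cells 49 to 91, against 0.15, 0.24 and 0.10 for all genes. Of the 11 members, 9 were above 0 within cells 1 to 48, 8 within cells 49 to 91 and 6 in both. Hspe1, the HSP10 co-chaperonin, had 5.79, 18.2 and 61.9 TPM in Hspa1-high cells and 4.73, 10.8 and 44.8 TPM in Hspa1-low cells. The ranges of Hspe1 overlapped over most of their length. Its difference was 0.72, and its correlation with the Hspa1 sum, 0.40, was the fourth highest of 7225 genes. Hspd1, the HSP60 partner encoded next to Hspe1, differed by 0.55, the mitochondrial HSP70 Hspa9 by 0.53, the mitochondrial HSP90 Trap1 by 0.61 and the protease subunit Clpp by 0.53.

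The cytosolic chaperonin TRiC and prefoldin had a median difference of 0.14 over 14 members, with none past 0.5. Cct5, a TRiC subunit, differed by 0.26 and Pfdn5, a prefoldin subunit, by -0.19. Over the 71 measured genes of the 8 chaperone and heat shock factor lists together, 2 were higher by at least 1 (0.277% of all genes were), 12 by at least 0.5 (4.46%) and 62 were above 0 (80%). No member was lower by 0.5 (0.194% of all genes were). The median was 0.25, with 0.17 within cells 1 to 48 and 0.18 within cells 49 to 91, where the medians of all genes were 0.24 and 0.10. The median of the lists was therefore below that of all genes in the first set of cell numbers and above it in the second, while Hspb1 and Hsp90aa1 lay above both medians in each.

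Other genes known to respond to heat shock factors had small differences. Their 12 measured members had a median difference of 0.25, against 0.15 for all genes, and 2 exceeded 0.5 (4.46% of all genes did). Sqstm1, the autophagy receptor p62, differed by 0.53 (medians 24.6 TPM in Hspa1-high and 16.99 TPM in Hspa1-low cells), Ubb, a ubiquitin gene, by 0.26 and Hmox1, heme oxygenase, by 0.07. Hmox1 was at a median of 0 TPM in both sets.

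Within the 27 Hspa1-high cells, several chaperone and immediate-early genes varied together. As a description over these 27 cells, which share library preparation, the Spearman correlation of Hspa1a was 0.56 with Hspb1, 0.50 with Hsp90aa1, 0.52 with Dnaja1, 0.48 with Hspd1 and 0.59 with Jun. Hspb1 and Hsp90aa1 had a correlation of 0.72, and Hsp90aa1 correlated with Hsp90ab1 at 0.76, with Hspa8 at 0.77 and with Fos at 0.80. In contrast, Hspa1a had values of -0.02 with Malat1, 0.13 with Reg2, 0.02 with Hsph1 and -0.01 with Hspa5, the ER chaperone BiP. Other pairs were low as well, such as Hspe1 with Jun (0.10) and Hsph1 with Fos (0.05). Hspa1a had 0.23 with Dnajb1 and 0.31 with Hspe1, and its level was part of the sum that chose the 27 cells. Of the 27 cells 18 were numbered 49 to 91. Over all cells numbered 49 to 91 Hsp90aa1 correlated with Fos at 0.77 and with Jun at 0.81. Over all cells numbered 1 to 48 the values were 0.27 and 0.23. The highest values lay in different cells, with the Hspa1 sum highest in cell 64, Hspb1 in cell 88 and Hsp90aa1 in cell 40.

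**Figure D3:**
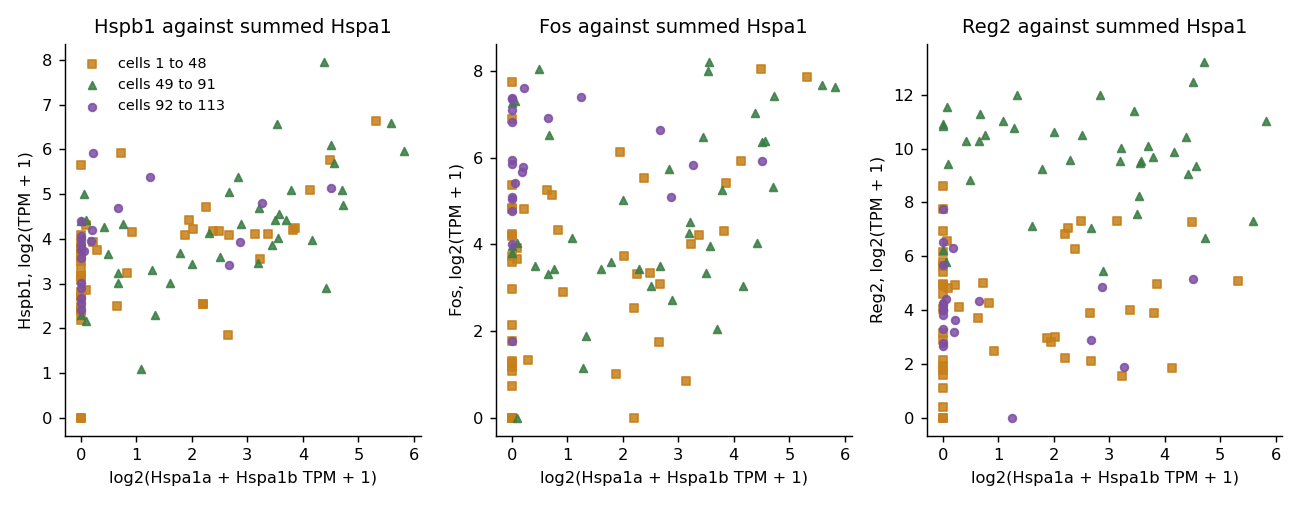
Level of Hspb1 (left), Fos (middle) and Reg2 (right) against the summed Hspa1 level in all cells, both on the log2(TPM + 1) scale. Markers give the cell number (squares 1 to 48, triangles 49 to 91, circles above 91), and the Spearman correlations over all cells are 0.56, 0.24 and 0.36. For Reg2, most triangles lie above the squares and circles at low and high Hspa1 levels alike.

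Immediate-early genes, which are transcribed soon after stimulation without new protein synthesis, mostly had positive differences. Of 34 measured members 33 were above 0 (80% of all genes were), 14 exceeded 0.5 (4.46%) and 6 exceeded 1 (0.277%), with a median of 0.42 against 0.15 for all genes. Fos, a subunit of the AP-1 transcription factor, stood at 3.12, 55.8 and 296 TPM in Hspa1-high cells, at a median of 12.0 TPM in middle cells, and at 0, 17.8 and 215 TPM in Hspa1-low cells. Of the Hspa1-low cells 5 were under 1 TPM of Fos and no Hspa1-high cell was, while 4 Hspa1-high cells exceeded every Hspa1-low cell. The difference was 1.63 over all members, 3.19 within cells 1 to 48 and 0.59 within cells 49 to 91, and it was 1.13 without the 4 cells low in Malat1. Of these 4, cells 31, 41 and 48 are among the 13 Hspa1-low cells behind values within cells 1 to 48.

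Jun, the partner of Fos in AP-1, had medians of 24.4 TPM in Hspa1-high, 9.34 TPM in middle and 10.9 TPM in Hspa1-low cells. Its difference was 1.32, with 2.67 within cells 1 to 48 and 1.27 within cells 49 to 91, and 0.91 without the 4 cells. Dusp1, a phosphatase that switches off MAP kinases, had medians of 6.35 TPM in Hspa1-high and 1.52 TPM in Hspa1-low cells, and its difference was 1.32 over all members, 1.97 within cells 1 to 48, 1.04 within cells 49 to 91, and 1.13 without the 4 cells. Egr1, an early zinc finger factor, had medians of 18.7 and 6.86 TPM in Hspa1-high and Hspa1-low cells, and its difference was 1.12 over all members, 2.35 within cells 1 to 48, 0.74 within cells 49 to 91, and 0.70 without the 4 cells.

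Ier2 and Btg2 likewise had differences of 1.04 and 0.88 over all members and of 0.77 and 0.47 without the 4 cells. Atf3, a stress-induced factor, differed by 0.33 with ranges of 0 to 114 TPM in Hspa1-high and 0 to 139 TPM in Hspa1-low cells, so the sets did not separate. The median of the immediate-early list was 0.70 within cells 1 to 48, 0.24 within cells 49 to 91 and -0.17 within cells above 91. Without the 4 cells it was 0.30, and 2 members, Fos and Dusp1, exceeded 1 (0.180% of all genes did, and 0.0277% were lower by as much). Within cells 1 to 48 the list median was 0.52 without cells 31, 41 and 48, against 0.19 for all genes. Part of the immediate-early difference thus lay in the 4 cells with almost no Malat1, whereas Hspb1 and Hsp90aa1 differed by 1.86 and 1.15 without them.

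Malat1 had a median of 472 TPM in Hspa1-high cells and 291 TPM in Hspa1-low cells. Its difference of 1.57 became 0.48 without the 4 cells, and without them Gm37376 differed by 0.47, Gm26917 by 0.46 and Gm42418 by 0.56. Splicing and nuclear RNA genes (16 measured) had a median difference of 0.27, and 0.07 without them. In all, 12 of the 20 higher genes still differed by at least 1 without these cells.

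**Figure D4:**
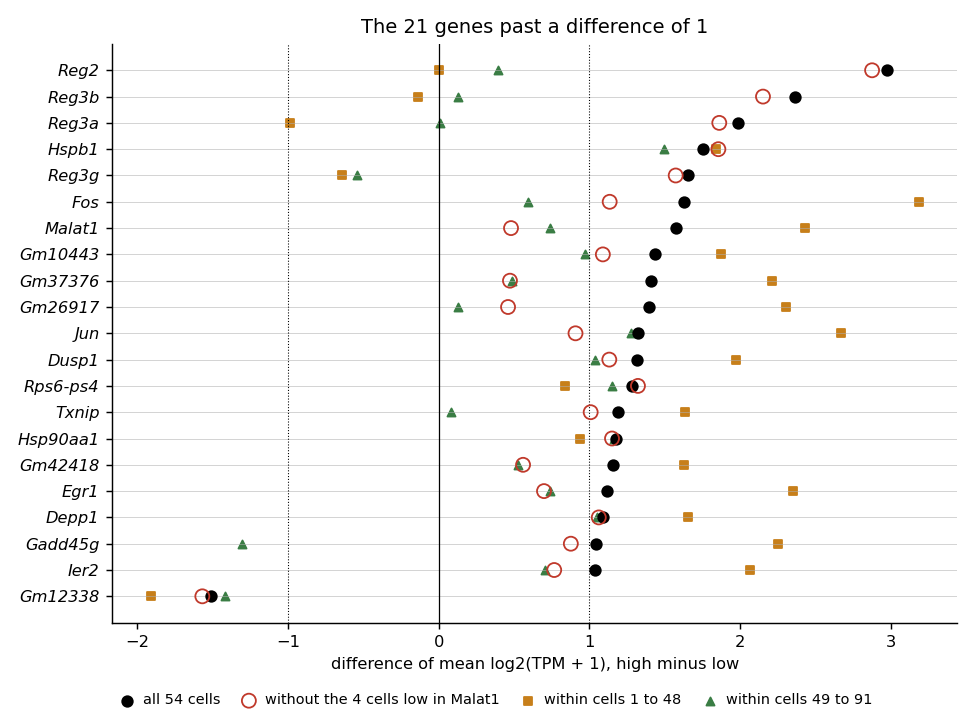
The 21 genes that differed by at least 1 between 27 Hspa1-high and 27 Hspa1-low cells, with the difference (Hspa1-high minus Hspa1-low, log2(TPM + 1)) on the horizontal axis over all 54 cells (black), without the 4 cells low in Malat1 (open red circles), within cells 1 to 48 (orange squares) and within cells 49 to 91 (green triangles). Dotted lines mark 1 and -1. The 4 Reg genes lie at no more than 0.39 within these sets of cell numbers, and Hspb1 lies past 1 in each.

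Reg genes, which encode secreted lectin-like proteins induced in pancreatic injury, had the largest differences over all members, and these were near or below 0.4 within cells 1 to 48 and 49 to 91. Reg2 stood at 1.97, 528 and 9527 TPM in Hspa1-high cells and at 0, 23.4 and 1918 TPM in Hspa1-low cells, a difference of 2.98. Within cells 1 to 48 the difference was 0.00, and within cells 49 to 91 it was 0.39, with medians of 778 TPM in Hspa1-high and 1837 TPM in Hspa1-low cells. Reg3b, Reg3a and Reg3g, antimicrobial members of the family, had differences of 2.36, 1.98 and 1.65 over all members. Within cells 1 to 48 those of Reg3b, Reg3a and Reg3g were -0.13, -0.99 and -0.64, and within cells 49 to 91 they were 0.13, 0.01 and -0.54. The median of 7 Reg and acute-phase genes was 1.65 over all members, -0.059 within cells 1 to 48 and 0.0079 within cells 49 to 91.

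Of the 21 genes past 1, 17 had the sign of the overall difference both within cells 1 to 48 and within cells 49 to 91. The others were Reg3a, Reg3b, Reg3g and Gadd45g. Members of both sets of cell numbers are among the 54 cells that chose the 21 genes. Such counts are therefore a description and no independent check. Of the 20 higher genes, 14 differed by at least 1 within cells 1 to 48 (2.09% of all genes did, and 0.125% were lower by as much) and 6 within cells 49 to 91 (1.29%, and 1.15% were lower). The 4 that did so in both were Hspb1, Jun, Dusp1 and Depp1, with cells 31, 41 and 48 kept in the first set. Depp1, a stress-responsive gene that regulates autophagy, was at or above 1 TPM in 11 of 27 Hspa1-high and 2 of 27 Hspa1-low cells. Gadd45g, a stress-induced growth arrest gene chosen here after its values were seen, differed by 1.05 over all members but by 2.25 within cells 1 to 48 and -1.30 within cells 49 to 91, and by 0.88 without the 4 cells low in Malat1.

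Txnip, the thioredoxin-interacting protein, differed by 1.19 over all members, 1.64 within cells 1 to 48 and 0.09 within cells 49 to 91. Gm12338, a predicted gene, had medians of 23.3 TPM in Hspa1-high and 48.4 TPM in Hspa1-low cells and differed by -1.51, with -1.91 and -1.42 within cells 1 to 48 and 49 to 91. Gm12338, Gm10443, Rps6-ps4 and Rps27rt are predicted genes or ribosomal protein copies, and near-identical copies elsewhere in the genome make their separate values uncertain. Gm12940, Rps27rt and Reg3d followed below the threshold at 0.97, 0.95 and 0.95.

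On the lower side, Cpe, the carboxypeptidase that trims peptide hormones, had medians of 1.32 TPM in Hspa1-high and 4.18 TPM in Hspa1-low cells. Its difference was -0.89, with -0.59 within cells 1 to 48 and -1.35 within cells 49 to 91, and its correlation with the Hspa1 sum, -0.31, was the lowest of 7225 genes. Gm10334, a trypsinogen-like gene of a family with shared sequence, differed by -0.71, Snrpg, a core subunit of the spliceosome, by -0.58 and Metap1d, a mitochondrial methionine aminopeptidase, by -0.52. Rps13-ps1, Gm9790, Gm9803, Gm10052 and E030030I06Rik had differences from -0.59 to -0.45. Cpe is also made by endocrine cells. Of 14 endocrine markers no more than 2 reached 1 TPM in any member, their summed level was at most 2.78 TPM in Hspa1-high and 4.22 TPM in Hspa1-low cells, and Gcg, Sst, Ppy and Chgb were at 0 in both sets.

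By correlation with the Hspa1 sum over all cells, Hspb1 (0.56) was followed by Reg3d and Celf1 (0.45 each), Hspe1, Uhrf2, Reg3b and Cad (0.40 each) and Hgfac, Cnbd2 and Chmp7 (0.39 each). The quartiles over all genes were 0.01 and 0.14. Celf1, an RNA-binding regulator of splicing and mRNA decay, was at or above 1 TPM in 20 of 27 Hspa1-high cells and 4 of 27 Hspa1-low cells, with medians of 1.41 and 0.370 TPM. Its difference was 0.75, with 1.44 within cells 1 to 48 and 0.64 within cells 49 to 91. Hgfac, a secreted protease that activates hepatocyte growth factor, had medians of 13.4 TPM in Hspa1-high and 9.81 TPM in Hspa1-low cells. The lowest correlations after Cpe were those of Gm15915 (-0.31), Metap1d (-0.30), Smc2 (-0.25) and Abhd5 (-0.25).

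Chaperones of the ER lumen differed less than Hspb1 and Hsp90aa1. The 23 measured members were all above 0 (80% of all genes were), 3 exceeded 0.5 (4.46%) and none reached 1. Their median was 0.30 over all members, 0.16 within cells 1 to 48, below the 0.24 of all genes there, and 0.18 within cells 49 to 91, against 0.10. Hspa5 stood at 39.2, 112 and 313 TPM in Hspa1-high cells and at 24.6, 86.8 and 249 TPM in Hspa1-low cells. Its difference was 0.48, with -0.04 within cells 1 to 48 and 0.62 within cells 49 to 91. Creld2, an ER stress-induced protein, had the largest difference of the list, 0.67, and -0.11 within cells 1 to 48.

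The unfolded protein and integrated stress response list (23 measured) had a median of 0.30 with 3 members past 0.5 (4.46% of all genes were). Ddit3, the factor CHOP, differed by 0.22, with -0.32 within cells 1 to 48 and 1.00 within cells 49 to 91, and Nupr1, an abundant stress-induced chromatin protein, by 0.17. Ddit4, an inhibitor of mTORC1, differed by 0.57. The 18 oxidative stress and NRF2 genes had a median of 0.17 and no member past 0.5. Ubiquitin and proteasome genes (38 measured) had a median of 0.26, with 5 past 0.5 (4.46% of all genes were), among them the catalytic subunit Psmb6 (0.60).

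Metallothioneins, which bind zinc and copper, had differences of opposite sign in cells 1 to 48 and 49 to 91. Mt1 differed by 0.12 over all members, 1.36 within cells 1 to 48 and -0.83 within cells 49 to 91, and Mt2 by 0.05, 2.27 and -1.87. Without the 4 cells low in Malat1 the median of the 3 measured metallothioneins was -0.13, against 0.09 with them. The 10 measured apoptosis and DNA damage genes had a median of 0.24, and Cdkn1a, the cell cycle inhibitor p21, differed by 0.72 (medians 3.21 TPM in Hspa1-high and 1.77 TPM in Hspa1-low cells), with 1.11 within cells 1 to 48 and -0.07 within cells 49 to 91. Of 16 inflammatory cytokine and NF-kB target genes 4 were measured, with a median of 0.24. Nfkbia, the inhibitor of NF-kB, differed by 0.55.

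**Figure D5:**
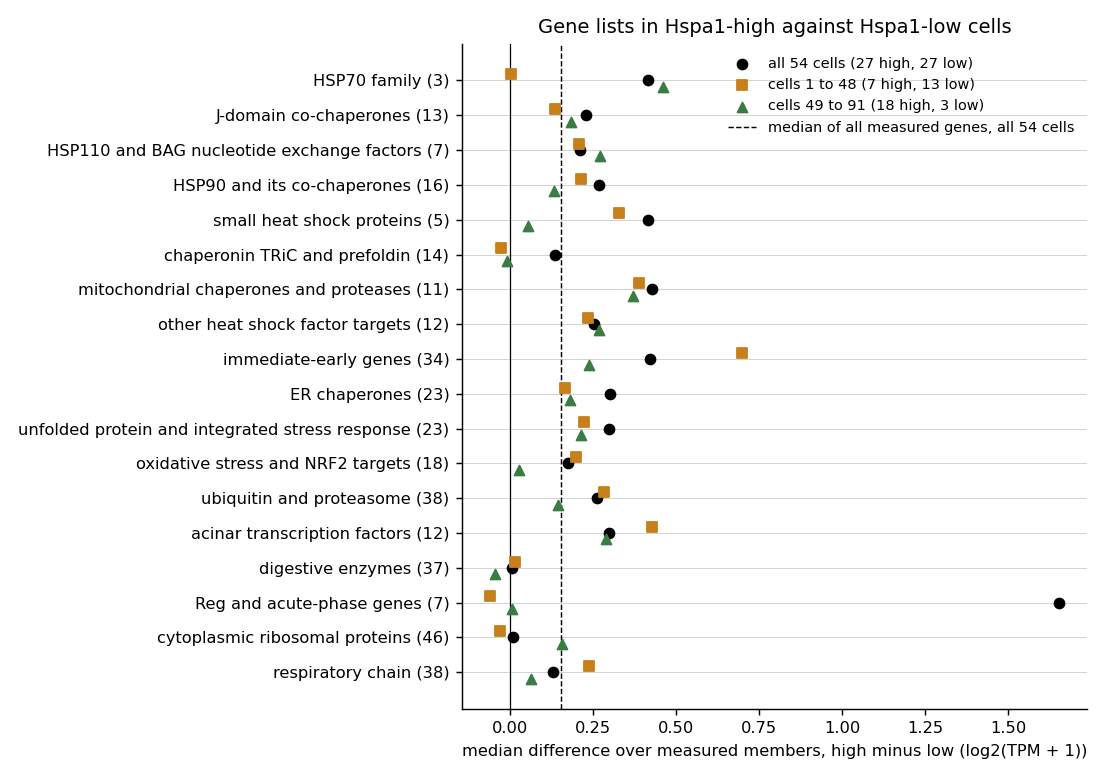
Median difference of each gene list between Hspa1-high and Hspa1-low cells (horizontal axis, log2(TPM + 1)), with the number of measured members in parentheses, over all 54 members (black), within cells 1 to 48 (orange) and within cells 49 to 91 (green). The dashed line is the median of 7225 genes, 0.15. Mitochondrial chaperones lie near 0.4 in all 3 and Reg genes at 1.65 in the first and near 0 in the others.

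Digestive enzymes differed little. The 37 measured digestive enzymes had a median difference of 0.01 with deposited TPM, -0.16 with scaling without the digestive enzymes and -0.20 with median-of-ratios scaling, and no member was higher by 0.5. Prss2, an anionic trypsinogen, had medians of 104719 TPM in Hspa1-high and 99533 TPM in Hspa1-low cells, and Ctrb1, a chymotrypsinogen, 97003 and 97612 TPM. Prss1, of a family whose members share sequence, differed by -0.91, with -1.65 within cells 1 to 48 and 1.24 within cells 49 to 91.

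Acinar transcription factors (12 measured) had a median of 0.30. Ptf1a, the factor that maintains acinar identity, stood at 4.69, 13.7 and 38.2 TPM in Hspa1-high cells and at 1.71, 7.70 and 24.4 TPM in Hspa1-low cells. The Ptf1a ranges overlapped, with a difference of 0.84 (0.47 within cells 1 to 48 and 0.74 within cells 49 to 91). Bhlha15, the secretory factor MIST1, differed by 0.29, Gata4, a lineage factor, by 0.53 and Xbp1, an activator of ER capacity, by 0.34. Of the ductal markers, Krt19, a keratin of duct cells, differed by 0.61 (0.40 within cells 1 to 48 and 0.87 within cells 49 to 91), and the median of 6 measured members was 0.11.

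Cytoplasmic ribosomal proteins had a median of 0.01 over 46 genes, respiratory chain genes 0.13 over 38 and cell cycle genes 0.15 over 10, against 0.15 for all genes. Within cells 49 to 91 the ribosomal median was 0.16, against 0.10 for all genes, and within cells 1 to 48 the cell cycle median was 0.35, against 0.24. Stmn1, a microtubule regulator of dividing cells, differed by -0.16, and its 2 highest values lay in opposite sets, 108.72 TPM in cell 40 (Hspa1-high) and 107.55 TPM in cell 31 (Hspa1-low). Mki67, the Ki-67 proliferation antigen, reached 1 TPM in 1 Hspa1-high and 1 Hspa1-low cell.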

How the data were processed

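The deposited table holds TPM, which per the submitters' processing notes came from STAR 2.4.2a and RSEM 1.2.21 with the mm10 genome; the authors' settings are not given in the sources used here. Of 45195 gene rows, 44548 were matched to a symbol. RSEM divides reads among near-identical genes, and depth in reads is unknown. Each cell was ranked by Hspa1a plus Hspa1b, ties going to the lower cell number first. Levels were log2(TPM + 1) and differences were means of 27 Hspa1-high minus 27 Hspa1-low cells, over 7227 genes at 1 TPM or more in at least 11 cells. No animal is named, so the cells form 1 sample and no test was made; the spread is over cells. Named genes were list members, the most correlated genes, and the 20 largest positive and 10 largest negative differences among genes at 1 TPM or more in at least 25% of cells whose sign was the same overall and within cells 1 to 48 and 49 to 91; genes past 1 outside this rule were named after their values were seen. The members and lists were chosen with earlier results of these data known. Alternatives changed the pseudocount, scaling, set size, tie order and cells used. No doublet caller was run. Functions were tested on simulated data. Cell numbers were divided after 48 and 91, and 21 cells, those numbered above 91, had totals short of 999900 TPM. Work used Python 3.11.15, numpy 2.4.6, pandas 2.3.3, scipy 1.17.1 and matplotlib 3.10.9.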

Additional observations from a re-analysis of the deposited data

How the results depend on the processing

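The counts of gene differences that follow cover genes of the lists and other named genes, not all 7225 measured genes. Over all alternatives, with a gene counted once per alternative, 7940 gene differences moved by less than the spread between cells and 118 by more. A further 17, all of genes past a difference of 1, changed sign. For list medians the numbers were 549, 14 and 2. Smaller differences that crossed 0 are not among these sign changes. Over the alternatives Hspa5 ran from -0.25 to 0.87, Atf3 from -0.33 to 1.53 and the J-domain median from -0.20 to 0.41. The cause of these shifts was not tested. Against 20 genes higher and 1 lower by at least 1 in Hspa1-high cells, a pseudocount of 0.1 gave 325 and 17, a pseudocount of 10 gave 5 and 0, and medians in place of means gave 44 and 4. Scaling without the digestive enzymes gave 17 and 3 and median-of-ratios scaling 14 and 3. With 18 cells a set there were 42 and 3, and with 36 cells a set 10 were higher. Ranking by Hspa1b alone gave 11 higher, breaking ties at 0 the other way gave 2 lower, and a limit of 0.5 gave 322 and 14. Within cells 1 to 48 there were 151 and 9, within cells 49 to 91 there were 93 and 83, and within cells above 91, with 2 Hspa1-high cells, 169 and 64. Without the 4 cells low in Malat1, an alternative chosen after seeing the data, there were 13 and 2. Ranking within each set of cell numbers gave 2 lower, and 8 higher when the 4 cells were also left out.

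List medians moved as follows. Mitochondrial chaperones had 0.097 with a pseudocount of 10. Digestive enzymes had -0.16 with scaling without the digestive enzymes and -0.20 with median-of-ratios scaling, and acinar markers -0.12 and -0.16. Reg and acute-phase genes had -0.059 within cells 1 to 48, 0.0079 within cells 49 to 91, 0.023 with ranking within sets of cell numbers and -0.035 with this ranking and without the 4 cells. Splicing and nuclear RNA genes had 0.81 within cells 1 to 48 and -0.39 within cells above 91. Within cells above 91, J-domain genes had -0.20, exchange factors -0.34, other heat shock factor targets -0.097, unfolded protein response genes -0.029 and NF-kB targets -0.32.

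Among single genes, ranking within sets of cell numbers gave -0.14 for Reg2, -0.30 for Reg3a and -0.21 for Reg3g, and -0.10, -0.36 and -0.12 without the 4 cells. Within cells 1 to 48, Reg3a had -0.99, Reg3b -0.13 and Reg3g -0.64. Within cells 49 to 91, Gadd45g had -1.30 and Reg3g -0.54. Within cells above 91, Dusp1 had -0.23, Gadd45g -0.64, Gm12338 0.74, Ier2 -0.25, Jun -0.087 and Reg2 -0.95. Hspb1 kept a difference of 1.12 to 2.01 over all alternatives and Hsp90aa1 0.77 to 1.52. No paired analysis was possible because the labels place all cells in 1 group and name no animal or batch.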
